A study of Caenorhabditis elegans with 12 samples.

Results

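The heterochronic genes lin-14, lin-28, hbl-1, daf-12, lin-46 and lin-29 were followed through whole young adult Caenorhabditis elegans as a gauge of developmental stage. They were taken by gene symbol, and 6 of 6 were listed in each of the 5 deposited tables, among 24619 genes listed in any table. The series held 4 groups of 3 polyA RNA libraries: adr-2(-) on sqd-1 RNAi, adr-2(-) on control RNAi, wild-type on sqd-1 RNAi and wild-type on control RNAi. The adr-2(-) animals were strain BB20 with the ok735 allele of adr-2, which encodes an RNA-editing adenosine deaminase, and the wild-type animals were strain N2. All animals hatched and grew on bacteria for RNAi by feeding. These carried an empty vector for control RNAi, or one targeting sqd-1, a gene for an RNA-binding protein. A growth time of 72 h is given in the labels' protocol and 60 h in the series' design text, so the age of the animals is uncertain. The labels do not say whether replicates were separate cultures, so p-values measure only the spread between these libraries.

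In the worm, heterochronic genes set the order in which larval cell fates are carried out, above all in the lateral hypodermal seam cells. lin-14, lin-28 and hbl-1 act early, and microRNAs of the lin-4 and let-7 families lower their products as larvae grow. daf-12, lin-46 and lin-29 act in the later steps, which end with the seam cells leaving the larval cycle and secreting an adult cuticle. Much of this control acts on protein output, which RNA counts do not measure.

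All 6 genes are annotated as protein coding in the WBcel235 build. lin-14 (WBGene00003003) lies on the + strand of chromosome X at 11465560 to 11485871, with 2 annotated transcripts, and its exons overlap those of 2 snoRNA genes on the same strand. hbl-1 (WBGene00001824) and daf-12 (WBGene00000908) are also on the + strand of X, at 5822142 to 5827755 and at 10635908 to 10666875, and daf-12 has 10 annotated transcripts. lin-28 (WBGene00003014) lies on the - strand of chromosome I at 8407630 to 8410804, and 16 exonic bases are shared with a gene on the other strand. lin-29 (WBGene00003015) lies on the - strand of chromosome II at 11917642 to 11935343, with 2 exonic bases shared with hmg-12 on the other strand. lin-46 (WBGene00003031) lies on the + strand of chromosome V at 12968855 to 12970730 and has 1 annotated transcript. Counts were per gene, so transcripts of 1 gene could not be told apart, and whether counting used strand is not given in the sources used here.

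Total reads per library ran from 29042770 to 33984832, of which ribosomal RNA genes took 28.97% to 57.8%. The targeted gene sqd-1 had 1863, 1106 and 1240.5 normalized reads in adr-2(-) on sqd-1 RNAi, against 11472, 29363 and 18585 in adr-2(-) on control RNAi. In wild-type it had 1302, 1342 and 1337 normalized reads on sqd-1 RNAi, against 11948, 15266 and 13789 on control RNAi. Libraries of adr-2(-) animals held 0 to 4 reads of adr-2, against 331 to 956 in wild-type libraries. Both checks matched the labels in all 12 libraries. In wild-type, adr-2 was itself lower on sqd-1 RNAi, at 328, 470 and 343 normalized reads, against 802, 975 and 781 on control RNAi. Normalized reads here are counts of reads over the library's size factor, and 1 read was worth 0.737 to 1.81 normalized reads. Replicates lay further apart in adr-2(-): the median gene's SD on the log2 scale was 0.504 in adr-2(-) on sqd-1 RNAi and 0.475 in adr-2(-) on control RNAi, against 0.222 in wild-type on sqd-1 RNAi and 0.211 in wild-type on control RNAi.

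Per kilobase of exon, lin-28 was the most abundant of the 6 genes by group mean in every group, followed by lin-14, daf-12, lin-29, hbl-1 and lin-46. The lin-28 mean was 384 normalized reads per kilobase in adr-2(-) on sqd-1 RNAi, 570.0 in adr-2(-) on control RNAi, 266 in wild-type on sqd-1 RNAi and 445 in wild-type on control RNAi. In wild-type on control RNAi the others averaged 124 (lin-14), 83.9 (daf-12), 46.5 (lin-29), 16.3 (hbl-1) and 13.9 (lin-46) normalized reads per kilobase. Libraries of hbl-1 and lin-46 overlapped per kilobase in both wild-type groups and in adr-2(-) on sqd-1 RNAi, so their order there was not beyond the spread. Libraries of lin-14 and daf-12 overlapped per kilobase in both adr-2(-) groups. In adr-2(-) on sqd-1 RNAi those of daf-12 and lin-29 overlapped as well. lin-46 rested on 7 to 53 reads per library, the fewest of the 6 genes in every library.

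**Figure D1:**
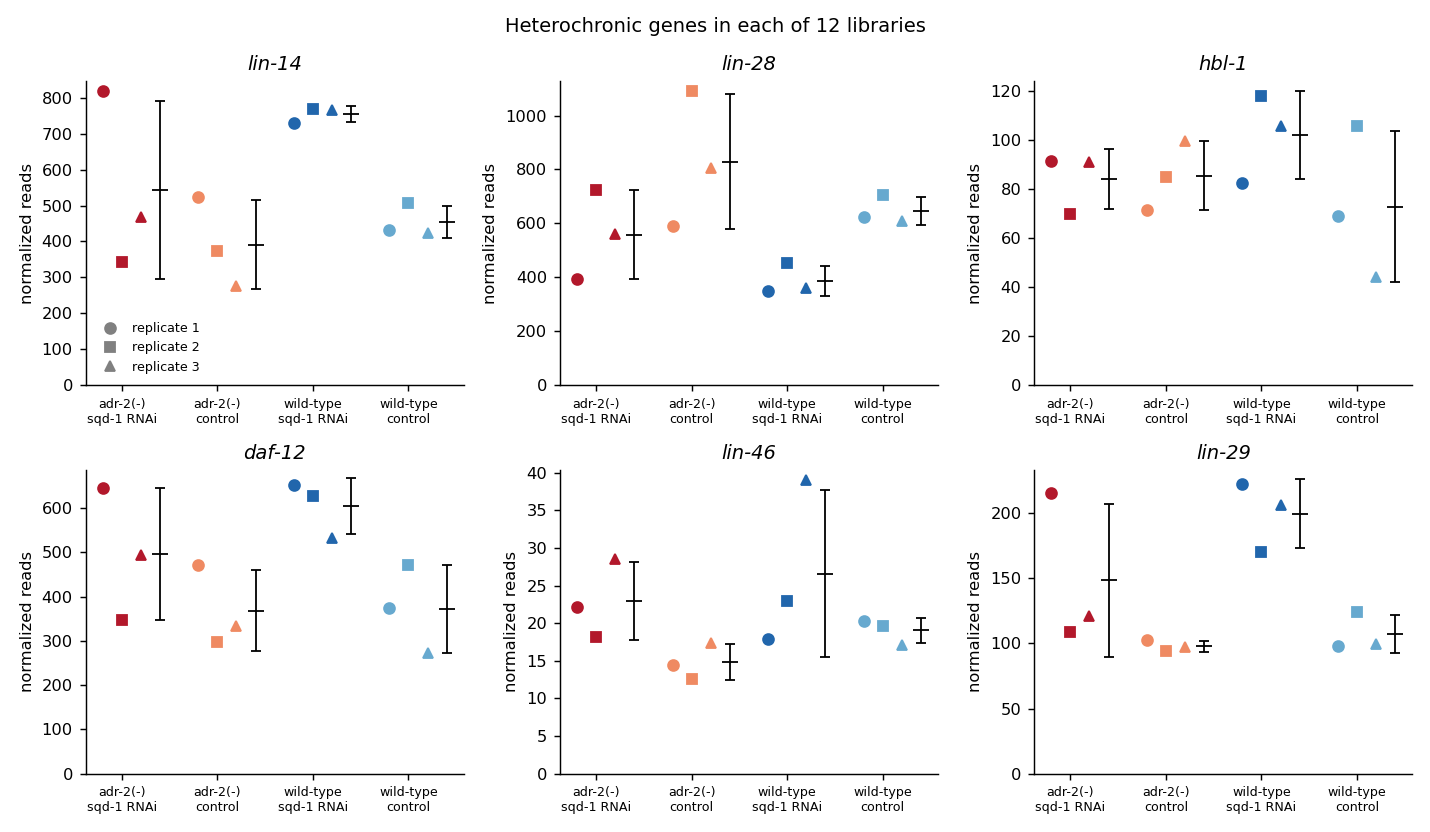
Normalized reads of the 6 heterochronic genes (vertical axes, each from 0) in 12 libraries; symbols mark replicates 1 to 3, and the black bar beside each group is its mean with SD. lin-14, daf-12 and lin-29 sit higher, and lin-28 lower, in all 3 wild-type libraries on sqd-1 RNAi than in any wild-type library on control RNAi; adr-2(-) libraries of these genes mostly spread more widely.

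Wild-type animals on sqd-1 RNAi were compared with wild-type animals on control RNAi to ask whether loss of sqd-1 goes with a different level of the timing genes. lin-28 fell, lin-14, daf-12 and lin-29 rose, and hbl-1 and lin-46 did not pass the test. By limma on log2(normalized value + 1), 4 of the 6 genes were called at a Benjamini-Hochberg adjusted p under 0.05, where 61.1% of all 14489 genes tested were called. The count of 4 of 6 is therefore near the background of this comparison. Rises were called for 3 of the 6 genes (27.3% of all genes) and a fall for 1 of the 6 (33.8% of all genes).

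Among the early-acting genes, lin-14 encodes a nuclear protein that keeps the first larval programme going. It had 729, 769.9 and 765 normalized reads in wild-type libraries on sqd-1 RNAi, against 432, 507 and 424 on control RNAi. The sqd-1 RNAi libraries were all above the control libraries and lay close together, with a SD of 22.4 normalized reads against 45.8 in controls. This was a log2 fold change of 0.70 ± 0.157 (SE, n = 3 each, limma adjusted p = 0.00169).

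lin-28 encodes an RNA-binding protein that blocks maturation of the let-7 microRNA. It had 349, 452 and 359.7 normalized reads in wild-type libraries on sqd-1 RNAi, against 624, 706 and 608 on control RNAi. Every sqd-1 RNAi library lay below every control library. limma gave a log2 fold change of -0.78 ± 0.169 (SE, n = 3 each, limma adjusted p = 0.00127). It was the only one of the 6 genes to fall in this comparison, and it went against lin-14, with which it shares the early larval role.

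hbl-1, which encodes a hunchback-like zinc-finger transcription factor, had 82.3, 118 and 105 normalized reads in wild-type on sqd-1 RNAi, against 68.7, 106 and 44.1 on control RNAi. The groups overlapped, and the control libraries alone spanned more than the sqd-1 RNAi ones. Its log2 fold change of 0.51 ± 0.288 (SE, n = 3 each) did not pass, with a limma adjusted p of 0.137. Without control replicate 2, the highest control library, it was 0.83 with a limma adjusted p of 0.0206, and without control replicate 3, the lowest, it was 0.21.

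Among the later-acting genes, daf-12 encodes the nuclear hormone receptor that reads out steroid ligands called dafachronic acids and times the expression of let-7 family microRNAs. It had 653, 626 and 533 normalized reads in wild-type on sqd-1 RNAi, against 374, 471 and 273 on control RNAi. All sqd-1 RNAi libraries were higher than all control libraries, and control replicate 3 was the lowest. Its log2 fold change was 0.69 ± 0.202 (SE, n = 3 each, limma adjusted p = 0.00970). Without control replicate 3 it was 0.49, with a limma adjusted p of 0.0538, which ended the call.

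lin-46, which encodes a scaffold-like protein acting downstream of lin-28, had 17.9, 22.9 and 39.1 normalized reads in wild-type on sqd-1 RNAi, against 20.3, 19.6 and 17.2 on control RNAi. The groups overlapped, and sqd-1 RNAi replicate 3 stood above the other 5 libraries. The log2 fold change was 0.36 ± 0.334 (SE, n = 3 each, limma adjusted p = 0.369), so no difference was detectable at this depth. Without sqd-1 RNAi replicate 3 it was 0.056 and without sqd-1 RNAi replicate 1 it was 0.60.

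lin-29 encodes the zinc-finger transcription factor that drives the switch from larval to adult hypodermis. It had 222, 170.0 and 206 normalized reads in wild-type on sqd-1 RNAi, against 97.8, 124 and 99.6 on control RNAi. The groups did not overlap. The log2 fold change of 0.85 ± 0.194 (SE, n = 3 each, limma adjusted p = 0.00185) was the largest in size among the 6 genes. In all, lin-14, lin-28, lin-29 and daf-12 had libraries that did not overlap between the 2 groups, which was so for 68.2% of all genes tested.

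The authors' deposited table for the same comparison gave log2 fold changes of 0.70 for lin-14, -0.78 for lin-28, 0.86 for lin-29 and 0.66 for daf-12. The authors' deposited table gave adjusted p-values of 0.000226 for lin-14, 0.000136 for lin-28, 0.000683 for lin-29 and 0.00639 for daf-12. For hbl-1 and lin-46 the authors' deposited table gave adjusted p-values of 0.238 and 0.446.

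The calls were repeated with the libraries scaled to muscle and neuron markers, which put the median gene at -0.24 on the log2 scale, against 0.04 in the deposited scaling. With it, 2 of the 6 genes were called. lin-28 had a log2 fold change of -1.06 (limma adjusted p = 4.82e-05) and lin-29 of 0.57 (limma adjusted p = 0.0369). lin-14 had 0.42 (limma adjusted p = 0.0626) and daf-12 had 0.41 (limma adjusted p = 0.114), so neither call held. The direction of these 4 genes was the same under TMM, upper-quartile and marker scaling.

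Cell-type markers moved with the same contrast in wild-type. All 7 oocyte markers fell (median log2 fold change -2.74), and their summed level was 3631 to 9377 normalized reads on sqd-1 RNAi, against 35209.5 to 46452 on control RNAi. All 7 sperm markers rose (median 2.19), with sums of 4593 to 5912 normalized reads on sqd-1 RNAi against 1533 to 1842 on control RNAi. Of the 7 other germline markers 5 fell, with sums of 14378 to 19678 against 36833 to 47105 normalized reads, and 4 of 6 muscle markers rose, with sums of 131515 to 138418 against 86185 to 108530.0. Of 6 neuron markers 3 rose and 1 fell, and of 5 intestine markers 1 rose. Of 4 somatic gonad markers tested 2 rose, and of 4 hypodermal markers tested 1 rose and 1 fell. Of all genes tested, 27.3% rose and 33.8% fell. With muscle and neuron marker scaling 0 intestine and somatic gonad markers rose and 7 of 7 other germline markers fell. Under it 0 muscle and 0 neuron markers rose and 1 neuron marker fell. That scaling holds the mean of the muscle and neuron markers level across libraries, so their own counts under it are no independent check. With TMM scaling 3 somatic gonad markers rose, 0 neuron markers fell and 4 other germline markers fell. The oocyte and sperm counts held under both. No oocyte, sperm, germline or muscle marker was at 0 in all libraries. Their part in the changes of lin-14, lin-28, lin-29 and daf-12 was not tested, and in whole animals fewer cells of a type and less RNA per cell cannot be told apart.

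In adr-2(-) animals, sqd-1 RNAi was compared with control RNAi. By limma without regard to replicate number, 0 of the 6 genes were called, where 0.0284% of the 14068 genes tested were. The targeted gene sqd-1, with a log2 fold change of -3.72, did not pass in this fit either (limma adjusted p = 0.0627). The count of 0 by limma therefore says little about the 6 genes. None of the 6 had an unadjusted p under 0.05, while 2981 of all genes had, and edgeR and DESeq2 also called 0 of the 6. The replicate numbers paired the libraries within adr-2(-), and with the number as a block limma called lin-28 alone of the 6, where 45.6% of all genes were called.

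lin-28 had 392, 724 and 559 normalized reads in adr-2(-) on sqd-1 RNAi, against 590.0, 1089.9 and 805 on control RNAi. The groups overlapped, but within each pair of replicate numbers the sqd-1 RNAi library was the lower one. The log2 differences were -0.66, -0.52 and -0.43 in the deposited scaling of this comparison, whereas the reads above are on the scale of all 12 libraries. The log2 fold change of -0.53 had a SE of 0.361 and a limma adjusted p of 0.394 without the block, and a SE of 0.125 and a limma adjusted p of 0.0196 with it (n = 3 each). With the block and 1 pair left out, a check chosen after seeing the data, the limma adjusted p was 0.0956 without pair 1, 0.0506 without pair 2 and 0.0469 without pair 3, so the call ended in 2 of 3 such fits. Without the block, the log2 fold change ran from -0.75 without sqd-1 RNAi replicate 2 to -0.27 without sqd-1 RNAi replicate 1.

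Markers moved here too: with the block, limma called 7 of 7 oocyte markers lower and 7 of 7 sperm markers higher. In that fit 28.5% of all genes tested were called lower and 17.1% higher. Without the block, limma called 0 of the 7 oocyte markers and 1 of the 7 sperm markers. Summed oocyte markers were at 12850.5 to 40518 normalized reads in adr-2(-) on sqd-1 RNAi, against 42441 to 85298 on control RNAi, and their part in the lin-28 change was not tested.

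lin-14 had 819, 343 and 467 normalized reads in adr-2(-) on sqd-1 RNAi, against 522, 374 and 275 on control RNAi. In the deposited scaling of this comparison, replicate 2 was lower on sqd-1 RNAi by a log2 value of -0.05, whereas pairs 1 and 3 were higher by 0.58 and 0.86. In the fit, lin-14 had a log2 fold change of 0.46 ± 0.407 (SE, n = 3 each, limma adjusted p = 0.512, or 0.120 with the block). Leaving out sqd-1 RNAi replicate 1 gave 0.15 and leaving out sqd-1 RNAi replicate 2 gave 0.73. With the block, leaving out pair 2 gave 0.72 and a limma adjusted p of 0.0316, which passed, and leaving out pair 3 gave 0.26.

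daf-12 had 646, 348 and 493 normalized reads in adr-2(-) on sqd-1 RNAi, against 472, 298 and 334 on control RNAi. The groups overlapped, and all 3 pairs were higher on sqd-1 RNAi. The log2 differences were 0.38, 0.30 and 0.66 in the deposited scaling of this comparison. In the fit, daf-12 had a log2 fold change of 0.45 ± 0.336 (SE, n = 3 each, limma adjusted p = 0.445, or 0.0527 with the block), and it was 0.27 without sqd-1 RNAi replicate 1.

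lin-29 had 215, 108 and 121 normalized reads in adr-2(-) on sqd-1 RNAi, against 102, 94.0 and 97.3 on control RNAi. The groups did not overlap, but replicate 1 on sqd-1 RNAi stood far above replicates 2 and 3. In the fit, lin-29 had a log2 fold change of 0.56 ± 0.336 (SE, n = 3 each, limma adjusted p = 0.344, or 0.0905 with the block), and it was 0.29 without sqd-1 RNAi replicate 1.

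lin-46 had 22.1, 18.2 and 28.5 normalized reads in adr-2(-) on sqd-1 RNAi, against 14.5, 12.7 and 17.4 on control RNAi, also with no overlap. Its log2 fold change of 0.62 ± 0.407 (SE, n = 3 each) did not pass, with a limma adjusted p of 0.385, or 0.160 with the block. Of all genes tested, 28.6% had groups that did not overlap in this comparison, so the 2 of 6 genes in this state are near the background.

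hbl-1 had 91.3, 69.8 and 90.9 normalized reads in adr-2(-) on sqd-1 RNAi, against 71.5, 85.0 and 99.7 on control RNAi. The groups overlapped and the pairs moved in both directions. The log2 fold change was 0.01 ± 0.302 (SE, n = 3 each, limma adjusted p = 0.983), with a 95% interval from -0.70 to 0.73.

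**Figure D2:**
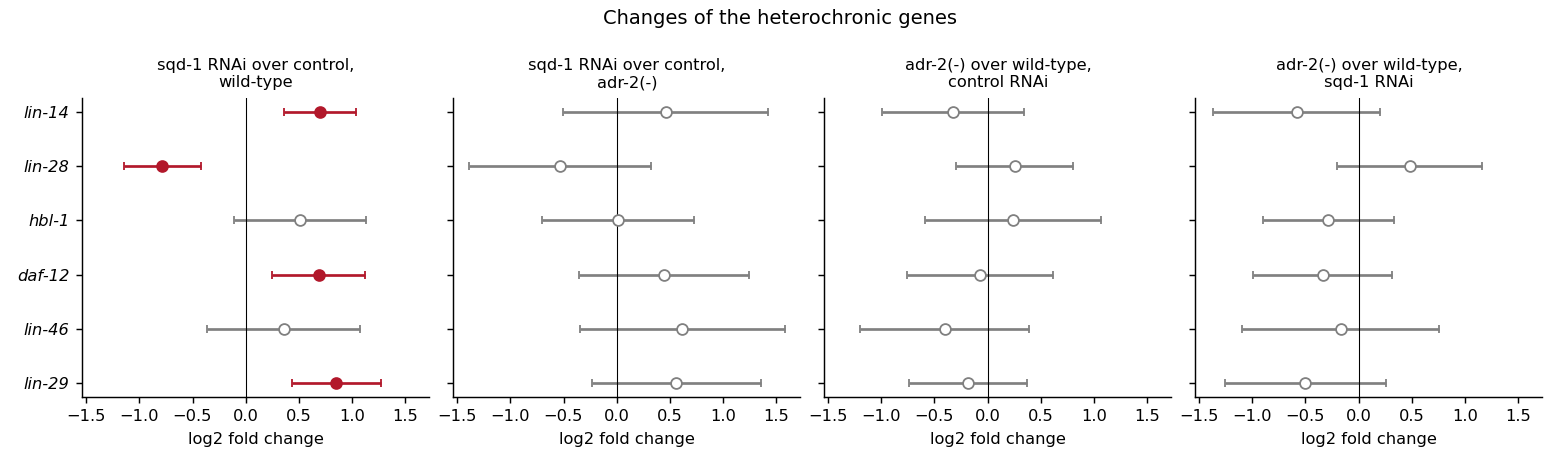
Log2 fold changes (horizontal axes) of the 6 heterochronic genes in 4 comparisons, with 95% limma intervals; filled red points passed the adjusted p threshold of 0.05, n = 3 libraries in each group. The filled points are lin-14, lin-28, daf-12 and lin-29 in wild-type, and every interval in the other 3 comparisons crosses 0.

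The difference of the sqd-1 RNAi effect between genotypes, adr-2(-) minus wild-type, was tested as an interaction over all 12 libraries. By limma 0 of the 6 genes were called, as were 0% of the 14266 genes tested, with 205 of all genes at an unadjusted p under 0.05. edgeR and DESeq2 also called 0 of the 6. The difference in log2 fold change was -0.31 for lin-14 (95% interval -1.28 to 0.66), 0.18 for lin-28 (-0.67 to 1.02), -0.36 for lin-29 (-1.19 to 0.47) and -0.31 for daf-12 (-1.20 to 0.57). For hbl-1 the difference was -0.57 (95% interval -1.55 to 0.41) and for lin-46 it was 0.19 (-0.85 to 1.23). These intervals include 0 and, for the 4 genes called in wild-type, also a difference that would cancel the wild-type effect. With the replicate block limma again called 0 of the 6 genes, and the intervals were -0.88 to 0.26 for lin-14, -0.15 to 0.50 for lin-28, -1.10 to 0.37 for lin-29 and -0.77 to 0.14 for daf-12. The blocked interval of lin-28 does not reach its wild-type effect of 0.78 in size, while those of lin-14, lin-29 and daf-12 still include a difference that large. For hbl-1 the blocked interval was -1.40 to 0.26 and for lin-46 it was -0.83 to 1.22. The calls in wild-type alone are therefore not shown to differ from adr-2(-).

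Genotypes were compared on each food to ask whether loss of adr-2 alone goes with a different level of the timing genes. On control RNAi, limma called 0 of the 6 genes in adr-2(-) against wild-type (0.00737% of the 13566 genes tested, with 1008 at an unadjusted p under 0.05), and edgeR and DESeq2 called 0 of the 6. The log2 fold changes ran from -0.40 ± 0.339 for lin-46 to 0.25 ± 0.234 for lin-28 (SE, n = 3 each, limma adjusted p = 0.654 and 0.677). lin-46 was the only one of the 6 genes whose groups did not overlap in the deposited scaling, which was so for 13.9% of all genes tested. On the scale of all 12 libraries its groups did overlap, at 14.5, 12.7 and 17.4 normalized reads in adr-2(-) against 20.3, 19.6 and 17.2 in wild-type.

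On sqd-1 RNAi, limma called 0 of the 6 genes in adr-2(-) against wild-type, and 0% of the 14697 genes tested. Of all genes, 1781 had an unadjusted p under 0.05. edgeR and DESeq2 also called 0 of the 6. adr-2 itself, with a log2 fold change of -7.89, did not pass in this fit (limma adjusted p = 0.157). The count of 0 by limma therefore says little about the 6 genes. The lowest limma adjusted p among the 6 was 0.467, for lin-14, with a log2 fold change of -0.58 ± 0.331 (SE, n = 3 each). lin-28 had a log2 fold change of 0.48 ± 0.287 and lin-29 of -0.50 ± 0.321 (SE, n = 3 each), with limma adjusted p-values of 0.484 and 0.497. No gene of the 6 had groups without overlap, which 24.7% of all genes had.

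The comparison of adr-2(-) on sqd-1 RNAi with wild-type on control RNAi shares its groups with the comparisons above. It called 0 of the 6 genes by limma (0.0422% of the 14206 genes tested, with 2260 at an unadjusted p under 0.05), edgeR or DESeq2. None of the 6 had groups without overlap, which 26.2% of all genes had. The log2 fold changes ran from -0.26 ± 0.280 for lin-28 to 0.40 ± 0.316 for lin-29 (SE, n = 3 each, limma adjusted p = 0.637 and 0.524).

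The genes were also set against each other within each library, where the size factor cancels. These ratios were chosen after the values were seen and are given as a description. The ratio of lin-14 reads to lin-28 reads was 2.09, 0.474 and 0.836 in adr-2(-) on sqd-1 RNAi, and 0.885, 0.343 and 0.342 in adr-2(-) on control RNAi. It was 2.09, 1.70 and 2.13 in wild-type on sqd-1 RNAi, against 0.691, 0.718 and 0.698 in wild-type on control RNAi. The wild-type groups stood apart, and the 3 wild-type control libraries nearly coincided. In adr-2(-), replicate 1 was the highest library on both foods, and on sqd-1 RNAi it stood at the wild-type level while replicate 2 lay below and replicate 3 above the wild-type control level.

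The ratio of lin-29 reads to lin-28 reads was 0.549, 0.150 and 0.217 in adr-2(-) on sqd-1 RNAi, and 0.173, 0.0862 and 0.121 in adr-2(-) on control RNAi. In wild-type it was 0.636, 0.376 and 0.574 on sqd-1 RNAi, against 0.157, 0.176 and 0.164 on control RNAi. The wild-type groups again stood apart, and the adr-2(-) groups overlapped. Every pair of replicate numbers had the higher ratio on sqd-1 RNAi.

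**Figure D3:**
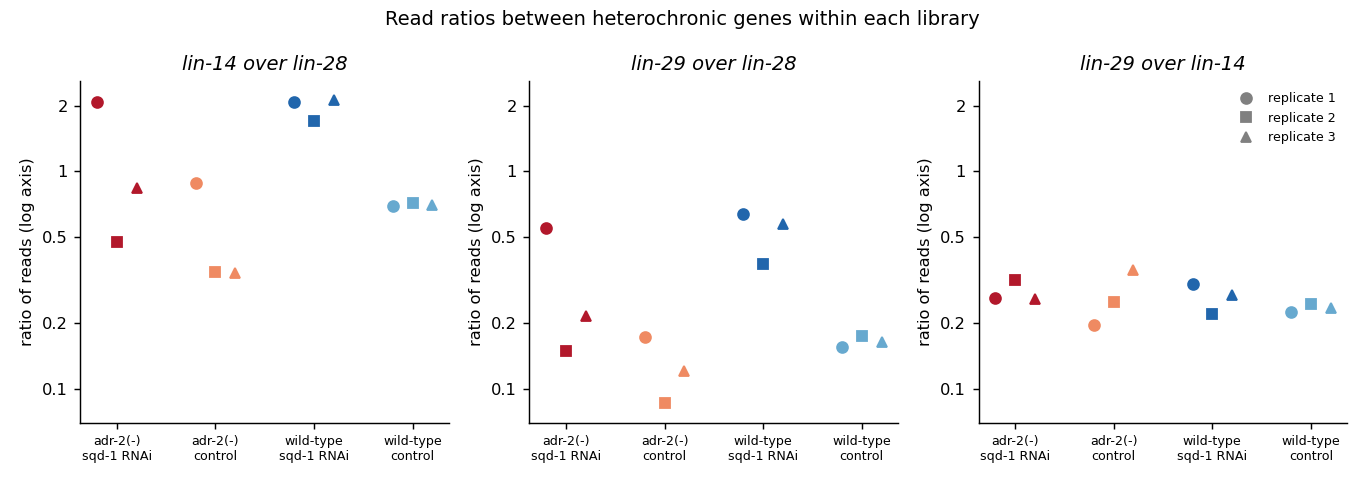
Ratio of read counts between heterochronic genes within each library (log axes), by group, with symbols for replicates 1 to 3. lin-14 over lin-28 is 1.70 to 2.13 in wild-type on sqd-1 RNAi and 0.691 to 0.718 in wild-type on control RNAi. The ratio of lin-29 over lin-14 overlaps between sqd-1 RNAi and control RNAi within each genotype.

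Replicates of adr-2(-) differed from each other in a way shared by both foods. lin-28 deviated from its group mean by log2 values of -0.46, 0.42 and 0.05 on sqd-1 RNAi and by -0.44, 0.44 and 0.00 on control RNAi in replicates 1, 2 and 3. lin-14 deviated by 0.69, -0.57 and -0.12 on sqd-1 RNAi and by 0.47, -0.01 and -0.45 on control RNAi. Replicate 1 was thus the lowest library for lin-28 and the highest for lin-14, and for daf-12 as well, on both foods. In adr-2(-) on control RNAi, lin-29 kept within 94.0 to 102 normalized reads, a spread smaller than that of nearly all other genes in the group (percentile 1.02 of the SDs of 14266 genes).

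Among the 6 genes, lin-14, lin-29 and daf-12 had the most similar profiles over the 12 libraries. The root mean square difference between their gene-centred log2 profiles was 0.227 for lin-14 and lin-29, 0.236 for lin-29 and daf-12, and 0.242 for lin-14 and daf-12. lin-28 was 0.652 to 0.932 from each of the others. Outside the 6, and among 9379 genes averaging at least 100 normalized reads, the nearest profile to lin-28 was ttb-1 (0.0732), then eif-2Balpha (0.0884). The nearest to lin-14 were mpk-2 (0.141) and C14A4.12 (0.144), to lin-29 sma-5 (0.131) and K02C4.5 (0.145), and to daf-12 dyc-1 (0.107) and C27D8.3 (0.135). The nearest to hbl-1 were ced-11 (0.220) and sup-37 (0.230), and to lin-46 T13G4.4 (0.219) and dhs-20 (0.223). The 12 libraries share their groups, so a small difference can follow from the group means alone.

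Other regulators of the same pathway were read from lists of related genes. In wild-type, of 12 other heterochronic regulators 5 rose and 2 fell on sqd-1 RNAi by limma, where 27.3% of all genes tested rose and 33.8% fell, with a median log2 fold change of 0.29 where the median of all genes was 0.04. lin-42, a relative of the circadian gene Period that cycles with each larval moult, rose by 2.09 on the log2 scale (SE 0.235, limma adjusted p = 9.55e-06). lin-41, which encodes a TRIM-NHL RNA-binding protein that holds back lin-29 and also acts in growing oocytes, had a log2 fold change of -2.67 (SE 0.253, limma adjusted p = 3.67e-06). blmp-1, a zinc-finger transcription factor gene, rose by 0.62 and lep-2, a Makorin gene, fell by 0.58 on the log2 scale (limma adjusted p = 0.00393 and 0.00791). With muscle and neuron marker scaling 1 of the 12 rose and 4 fell, where 19.1% of all genes tested rose and 40.5% fell.

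Of 10 genes of the small RNA machinery that makes and uses the timing microRNAs, 0 rose and 7 fell in wild-type by limma, with a median log2 fold change of -1.02, where 33.8% of all genes tested fell. alg-1 and ain-1, which did not pass, changed sign under TMM and upper-quartile scaling. pash-1 and drsh-1, whose products form the Microprocessor that cuts microRNA precursors, had log2 fold changes of -1.98 and -1.53 (limma adjusted p = 4.19e-06 and 3.73e-05). pup-2, a poly(U) polymerase gene, had -1.64 and nhl-2, a microRNA cofactor gene, had -1.28 (limma adjusted p = 2.27e-05 and 1.46e-05). These falls stood beside those of the germline and oocyte markers, whose part in them was not tested.

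Of 9 genes of DAF-12 ligand synthesis, sterol handling and cofactors, 8 could be tested, and 3 rose and 1 fell in wild-type by limma, beside 27.3% and 33.8% of all genes tested. ncr-2, which encodes a sterol transporter of the Niemann-Pick type, rose by 1.92 on the log2 scale (SE 0.171, limma adjusted p = 2.93e-06). dhs-16, a dehydrogenase gene of dafachronic acid synthesis, rose by 1.91 on the log2 scale (limma adjusted p = 0.000609). strm-1, a sterol methyltransferase gene, rose by 1.33 (limma adjusted p = 0.00179). Both were low in wild-type on control RNAi, at 5 to 12 reads per library for dhs-16 and 13 to 24 for strm-1. emb-8, which encodes the reductase that serves cytochrome P450 enzymes, fell by 0.55 on the log2 scale (limma adjusted p = 0.00414).

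Of 6 adult cuticle genes, 3 rose and 1 fell in wild-type, where 27.3% of all genes tested rose and 33.8% fell. The collagen genes bli-1, bli-2 and rol-1 rose by 2.70, 2.12 and 0.95 on the log2 scale, and the adult collagen gene col-19 fell by 0.53 (limma adjusted p = 3.22e-05, 0.000355, 0.00584 and 0.0210). TMM and upper-quartile scaling ended the call of col-19, leaving 0 falls, while muscle and neuron marker scaling gave 3 rises and 2 falls on this list. Of 7 seam cell regulators 4 could be tested, and elt-1, a GATA factor gene, rose by 1.45 on the log2 scale (limma adjusted p = 8.91e-05). Among the hypodermal markers, the larval cuticle collagen gene dpy-7 rose by 3.98 and the hedgehog-related gene grd-3 fell by 0.61 on the log2 scale (limma adjusted p = 3.14e-05 and 0.0104). Of the 5 timing microRNA genes, 0 were matched by symbol among the genes listed, so they were not analysed here.

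**Figure D4:**
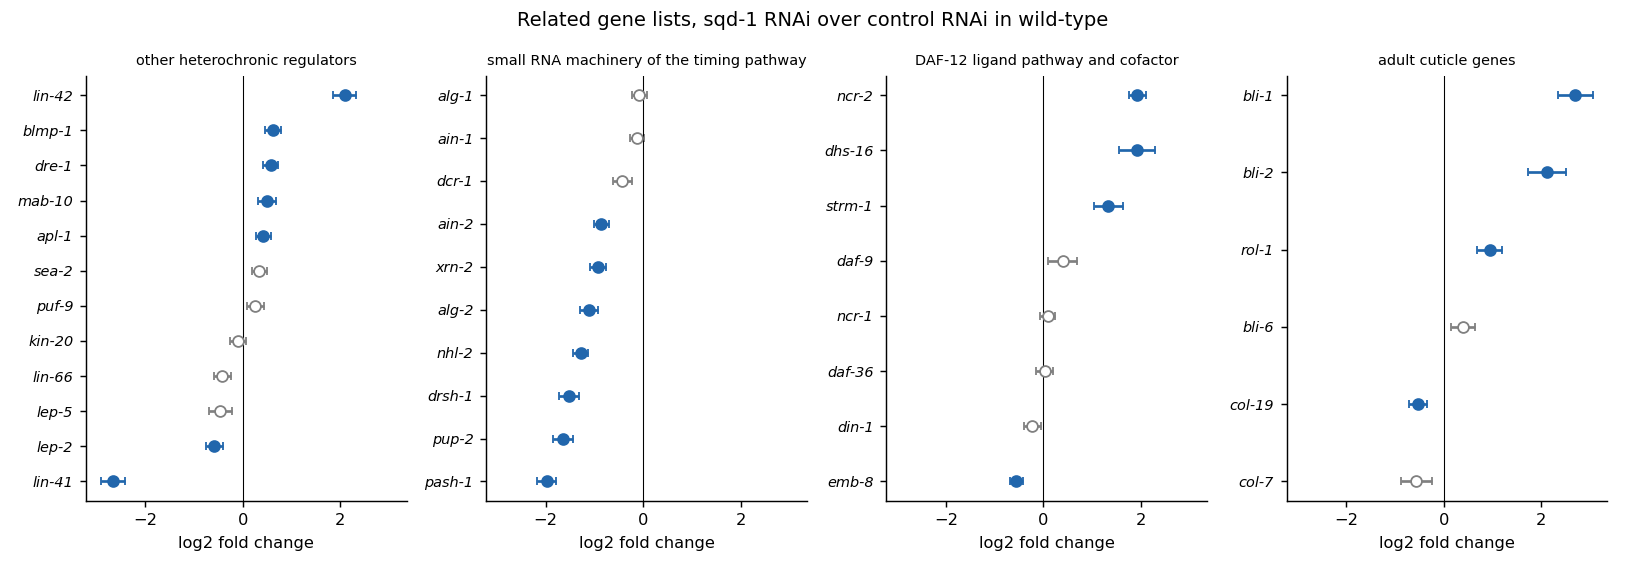
Log2 fold changes with SE (horizontal axes), sqd-1 RNAi over control RNAi in wild-type, for 4 lists of related genes; filled points passed the limma adjusted p threshold of 0.05, n = 3 libraries in each group. lin-42 at 2.09 and lin-41 at -2.67 are the extremes of the other heterochronic regulators, and all 10 small RNA genes have values below 0 in this scaling, of which alg-1 and ain-1 change sign under TMM and upper-quartile scaling.

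In adr-2(-), limma without the block called 0 genes of these lists on sqd-1 RNAi. With the replicate block it called 1 rise and 3 falls among the 12 regulators, 3 rises and 1 fall among the 8 ligand genes, 0 rises and 7 falls among the 10 small RNA genes and 1 rise among the 6 cuticle genes, where 17.1% of all genes tested rose and 28.5% fell. lin-41 had a log2 fold change of -1.31 (limma adjusted p = 0.191, or 0.00787 with the block), and ncr-2 of 2.18 (limma adjusted p = 0.140, or 0.00784 with the block). lin-42 had 1.10, which did not pass in either fit (limma adjusted p = 0.612 and 0.269).

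lin-42 and the cuticle genes bli-1 and rol-1, chosen after their values were seen, varied widely between adr-2(-) libraries. bli-1 had 1974, 1447 and 6.16 normalized reads in adr-2(-) on sqd-1 RNAi, against 51.2, 822 and 3.96 on control RNAi. In wild-type bli-1 had 1302, 1447 and 2210.1 normalized reads on sqd-1 RNAi, against 136, 207 and 490.0 on control RNAi. Replicate 3 of adr-2(-) was thus far below every other library for bli-1 on both foods. Summed over the 6 cuticle genes, adr-2(-) libraries held 23702, 41082 and 18014 normalized reads on sqd-1 RNAi. They held 20998, 44705 and 24398 on control RNAi, so the sums did not drop to that extent in replicate 3. The mean log2 level of the 6 was lowest there, at 5.11 on sqd-1 RNAi and 5.07 on control RNAi.

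lin-42 had 994, 692 and 36.2 normalized reads in adr-2(-) on sqd-1 RNAi, against 106, 320 and 80.7 on control RNAi, and rol-1 had 3559, 5922 and 21.6 against 799.5, 2782 and 13.5. dpy-7 had 195, 158 and 5.39 normalized reads in adr-2(-) on sqd-1 RNAi, against 6.76, 85.0 and 17.4 on control RNAi. Replicate 3 of adr-2(-) on sqd-1 RNAi was the lowest of all 12 libraries for lin-42, and for dpy-7 it was among the lowest. For dcr-1 and drsh-1, also chosen after their values were seen, replicate 2 of adr-2(-) was the low one. dcr-1, which encodes Dicer, had 3161, 129.6 and 4301 normalized reads in adr-2(-) on sqd-1 RNAi, against 3335, 240.4 and 4974 on control RNAi. drsh-1 had 825, 111 and 1598 normalized reads in adr-2(-) on sqd-1 RNAi, against 1348, 157 and 2196 on control RNAi. Summed over the small RNA genes, the 3 libraries held 14368, 10271 and 19549 normalized reads on sqd-1 RNAi, against 21452, 17545.5 and 29224.5 on control RNAi, so replicate 2 was lowest on both foods.

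None of the 6 timing genes dropped in replicate 3 of adr-2(-) to the extent of bli-1. In replicate 3 of adr-2(-) lin-14 had 467 normalized reads on sqd-1 RNAi and 275 on control RNAi, and lin-29 had 121 and 97.3. Without replicate 3 of adr-2(-) on both foods, the log2 fold changes there were -0.59 for lin-28 and 0.63 for lin-29, in a fit without the block that called 0 of all 14093 genes tested.

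**Figure D5:**
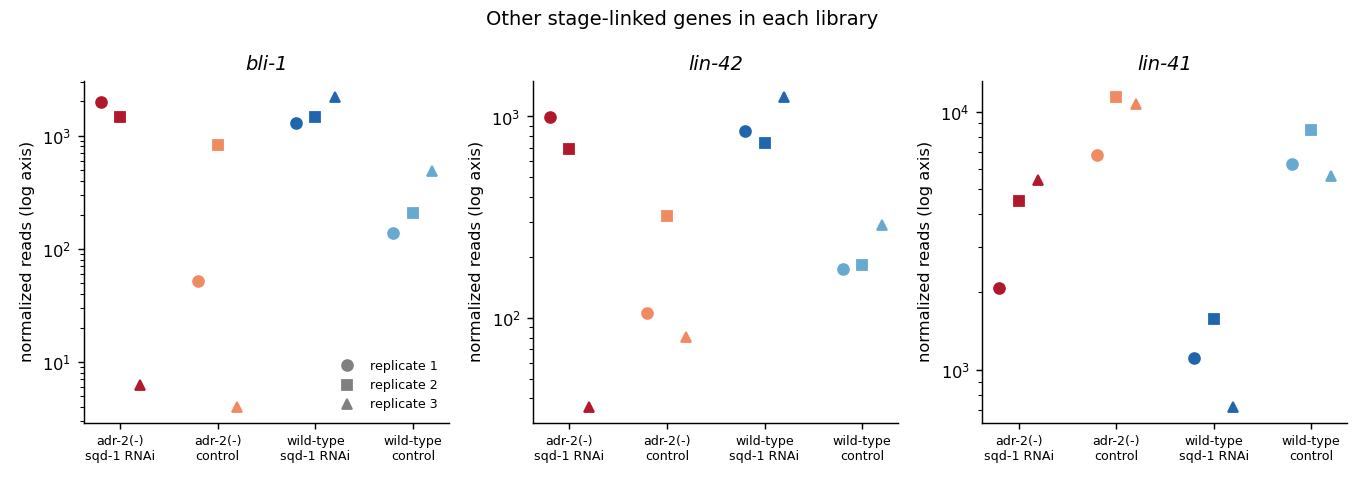
Normalized reads (log axes) of bli-1, lin-42 and lin-41 in 12 libraries, with symbols for replicates 1 to 3. In both adr-2(-) groups replicate 3 of bli-1 lies at 6.16 and 3.96 normalized reads, below all other libraries, and lin-41 is lower in all 3 wild-type libraries on sqd-1 RNAi than in every other library.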

How the data were processed

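The authors deposited 5 pairwise tables with, per the file headers, a log2 fold change, its standard error, p-values, a test score (not used) and a normalized signal per gene and library, which is a read count divided by 1 size factor. STAR 2.7.10b and DESeq2 were used per the submitters' processing notes. The build, annotation and counter are not given in the sources used here.

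Whole reads were recovered from the smallest step of each library: 100% of 690228 values came out whole (relative tolerance 0.001). Gene positions came from Ensembl release 115. Levels were put on 1 scale over 12 libraries with median-of-ratios factors. limma 3.58.1 (R 4.3.3, trend) was run within each table on log2(value + 1), for genes averaging 10 or more, and log2 changes of low genes are understated. edgeR 4.0.16, DESeq2 1.42.0 and other settings were alternatives. Members and lists were chosen with earlier results of these data known. Beyond the 6 genes, the text names up to 4 called genes of each list by size of change and the 2 nearest profiles of each gene. The limma fit without the block was run on simulated data for the sqd-1 RNAi comparison in each genotype and for the interaction. The fits with the block, edgeR, DESeq2 and the other comparisons were not simulated.

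Deviations of same-numbered libraries correlated across genes at 0.25 to 0.27 within wild-type and 0.64 to 0.82 within adr-2(-), so numbers pair libraries there. Between genotypes the correlations ran from -0.52 to 0.21, so numbers pair nothing. Replicates differed by more than sampling noise (chi-square per degree of freedom 21.6 to 480.8).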

Additional observations from a re-analysis of the deposited data

How the results depend on the processing

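In wild-type, 4 of the 6 genes were called on sqd-1 RNAi; the count was 2 with muscle and neuron marker scaling and 1 when all 12 libraries were fitted together (lin-29), and it ran from 3 to 5 when 1 library was left out. The cause was not tested. edgeR with the replicate block added hbl-1 (adjusted p = 0.0317). In adr-2(-) the count of 0 became 1 with the replicate block and 2 with edgeR and the block (lin-28 and daf-12). With the block and 1 pair left out, chosen after seeing the data, it was 0 without pair 1, 1 without pair 2 (lin-14) and 1 without pair 3 (lin-28), and all genes called numbered 3796 to 5775. Without the block, leaving out a library, or pair 2 or 3, gave 0 of the 6, but those fits called only 0 to 2 of all genes, so this says nothing about stability. The block changed no other call of the 6 genes.

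Directions reversed only for values that did not pass. The log2 fold change of hbl-1 on sqd-1 RNAi in adr-2(-) was -0.35 with marker scaling, -0.020 with all 12 libraries, -0.087 to 0.13 when libraries were left out and -0.12 without pair 1 under the block. For adr-2(-) against wild-type on control RNAi, marker scaling gave 0.050 for lin-29 and 0.16 for daf-12, and leaving out a library gave -0.30 to 0.10 for daf-12 and -0.058 to 0.53 for hbl-1. On sqd-1 RNAi, lin-46 was 0.0037 with marker scaling and -0.40 to 0.14 without 1 library. For adr-2(-) on sqd-1 RNAi against wild-type on control RNAi, leaving out a library gave -0.17 to 0.43 for lin-14 and -0.031 to 0.58 for hbl-1. The difference between genotypes ran from -0.045 to 0.41 for lin-28 and from -0.047 to 0.50 for lin-46. A mean of at least 50 left no value for lin-46.

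Over all genes in wild-type, 3957 rose and 4892 fell; marker scaling gave 2767 and 5869, edgeR 5215 and 4169, and all 12 libraries called 4964 in all. In adr-2(-), 4 genes were called, against 6411 with the block, 6176 with edgeR and the block, 3176 with all 12 libraries, 1424 with DESeq2 and 403 with a pseudocount of 10. On sqd-1 RNAi, adr-2(-) against wild-type called 0 genes, and 263 by DESeq2. For adr-2(-) on sqd-1 RNAi against wild-type on control RNAi the count was 6, against 0 with the block, 194 with edgeR, 830 with DESeq2, 248 with all 12 libraries and 1847 when replicate 2 of adr-2(-) on sqd-1 RNAi was left out. TMM and upper-quartile scaling put the median gene of the wild-type comparison at 0.18 and 0.20. lin-46 had the fewest reads of the 6 genes, at 7 to 53 per library.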
